A study of Mus musculus with 2 samples.

Results

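The 9 genes Cx3cr1, P2ry12, Tmem119, Csf1r, Aif1, Trem2, C1qa, C1qb and Itgam mark microglia, and their peaks were examined in an anti-FLAG CUT&Tag peak list from mouse hippocampus. Their peaks are those that the authors' annotation table assigned to 1 of these symbols. This gave 24 of the 99782 annotated peaks, and all 9 genes had at least 1. The members were chosen by name, as genes of cells in which a CamK promoter should be silent. CUT&Tag uses an antibody to bring a transposase to chromatin, so that DNA next to the antibody's target is cut and sequenced. The antibody was directed against FLAG, a peptide tag, to capture the zinc-finger repressor PARIS. The series has 2 libraries of untreated hippocampal tissue from C57BL/6J mice of the genotype CamK-PARIS, 1 with anti-FLAG and 1 with an anti-IgG control antibody. Both groups therefore share strain, tissue and genotype, and there is no group without the CamK-PARIS genotype. The labels give neither the structure of the CamK-PARIS allele, nor the cells that express it, nor the age, sex or number of the animals. With 1 library per antibody there is no replicate error and no test. All values are those of 1 anti-FLAG library, whose peaks were called with IgG as control.

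Microglia are the resident macrophages of the brain. Their survival depends on the receptor Csf1r, they sense neurons and damage through Cx3cr1, P2ry12 and Trem2, and they make the complement proteins that tag synapses and debris for removal. Promoter fragments of Camk2a are widely used to restrict a transgene to excitatory neurons of the forebrain, which is the basis on which these genes were set apart. The tissue was not sorted, and no RNA was measured, so the presence of microglia in it could not be checked from these files. In such bulk chromatin a strong signal in few cells and a weak signal in many cells cannot be told apart.

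Sequences under member peaks of Trem2, C1qa and Aif1 are shown first. They come from the 4 peaks of Trem2 and C1qa that were not of constant height (a shape defined with the values below), lay upstream of or at the gene start and reached at least 139 units, together with the Aif1 intron peak, whose window holds a motif. Each window spans 200 bp around the region of maximum signal, on GRCm38.p6 (mm10) and on the strand of the gene. The first was shortened to 120 bp so that it ends at the base before the Trem2 start. Capitals mark the region of maximum signal.
Trem2, 16 bp before its start (chr17:48346281-48346400, plus strand): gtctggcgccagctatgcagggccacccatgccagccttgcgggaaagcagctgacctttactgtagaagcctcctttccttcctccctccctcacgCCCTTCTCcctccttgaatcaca
Trem2, 8465 bp upstream (chr17:48337805-48338004, plus strand): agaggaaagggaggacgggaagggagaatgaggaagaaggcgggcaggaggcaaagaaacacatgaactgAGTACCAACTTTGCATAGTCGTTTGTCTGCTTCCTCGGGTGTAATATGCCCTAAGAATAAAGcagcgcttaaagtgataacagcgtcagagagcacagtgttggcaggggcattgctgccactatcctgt
C1qa, 9338 bp upstream (chr4:136908084-136908283, minus strand): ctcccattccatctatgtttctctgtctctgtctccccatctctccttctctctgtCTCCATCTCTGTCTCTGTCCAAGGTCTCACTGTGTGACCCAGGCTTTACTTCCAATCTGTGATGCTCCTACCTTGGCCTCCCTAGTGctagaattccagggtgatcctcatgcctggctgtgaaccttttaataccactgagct
C1qa, 14306 bp upstream (chr4:136913036-136913235, minus strand): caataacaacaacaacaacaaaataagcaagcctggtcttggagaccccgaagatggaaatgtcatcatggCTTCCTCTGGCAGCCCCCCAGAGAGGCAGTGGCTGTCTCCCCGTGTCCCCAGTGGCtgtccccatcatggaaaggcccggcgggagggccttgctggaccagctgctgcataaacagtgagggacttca
Aif1, 376 bp inside (chr17:35175462-35175661, minus strand): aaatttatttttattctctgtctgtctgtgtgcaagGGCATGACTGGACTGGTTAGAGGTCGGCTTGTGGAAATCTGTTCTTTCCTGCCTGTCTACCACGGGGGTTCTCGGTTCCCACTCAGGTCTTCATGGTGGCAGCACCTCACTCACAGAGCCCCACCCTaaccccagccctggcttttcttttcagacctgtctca

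In the C1qa window at 9338 bp the region of maximum signal lay beside a stretch rich in C and T, and 51.5% of the window was soft-masked in the reference as repetitive sequence. The window at the Trem2 start was GC-richer, at 59.2% G and C over its 120 bases. Over the 200 bp windows of all 24 member peaks the GC content had a mean of 49.8%, with a range from 39.5% to 60.5%, beside a mean of 49.0% over 99704 windows of all annotated peaks. Masked bases made up at least 50% of the window in 7 of the 24 member peaks (29.2%) and in 15.7% of all windows. The 7 belong to Aif1 (2 windows), P2ry12 (2), C1qa (2) and Itgam (1).

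Motifs of PARIS and of a myeloid factor were searched on both strands of these windows. PARIS is known to bind insulin response sequences. This motif, written as TATTTTT or TATTTTG, was present in 4 of 24 member windows (16.7%) and in 9.97% of all windows. Of the windows printed above, it lies at positions 19 to 25 of the C1qa window at 14306 bp, on the minus strand of the printed run, and at positions 6 to 12 of the Aif1 window, on the plus strand. Both matches lie outside the capitals. The other 2 matches were in P2ry12 windows and lie inside the region of maximum signal, which covers the whole window in those constant-height peaks. The motif GAGGAAGT, a site of the myeloid factor PU.1, was in 0 of 24 member windows and in 1.49% of all windows. With so low a share over all windows, 0 of 24 says nothing about the members. Only this exact word was searched for PU.1, and variants of the site were not. The motifs cannot overlap here, since GAGGAAGT was not found in a member window. A match describes letters only.

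The first question was whether genes of cells outside the expected expression domain carried peaks at all. All 9 members had an assigned peak, beside 72.7% of the 21911 protein-coding genes. Counted instead by position, 5 members had a peak in the gene body or the 3 kb before its start, beside 68.0% of protein-coding genes. Tmem119, C1qa, C1qb and Itgam had none by this count. A peak within 1 kb of an assigned transcription start site (TSS) was found for 3 of the 9, Trem2, Aif1 and P2ry12, beside 42.5% of protein-coding genes. Peaks differ in shape: many have the same height over their whole width, so that the total signal (coverage summed over the peak) equals the maximum signal times the width. Where this ratio was at least 99% a peak is called constant-height. A peak that was not of constant height was assigned to 6 of the 9 members, beside 52.0% of protein-coding genes. Such a peak within 1 kb of a TSS was found for 1 member, Trem2, beside 28.8% of protein-coding genes. With 9 genes and 1 library, nothing particular to the members can be read from these shares.

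Such counts moved with gene length: 53.2% of protein-coding genes below 10 kb had an assigned peak, and 83.4% of longer ones. Of the members, 5 are shorter than 10 kb, and 2 of these had a peak within 1 kb of a TSS, beside 26.9% of the 7762 genes in that class. Of the 4 longer members, 1 did, beside 51.0% of 14149 genes. The members had a median of 2 assigned peaks, the same as all protein-coding genes. The number ranged from 1 for Cx3cr1 to 5 for C1qa.

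The height of a peak is given as the authors' maximum signal and as its percentile, the share of all 99797 peaks at or below that height. The 24 member peaks had a median maximum signal of 95.5, beside 101 for all annotated peaks, and ranged from 5 to 284. Their median width was 430.0 bp, beside 363 bp. Of the 24, 12 were of constant height and 12 were not, while 63.3% of all annotated peaks were of constant height. Only 2 member peaks, of Csf1r and C1qa, were among the highest 10% of the list, which lies above 189. By the authors' classes, 8 member peaks were in promoters (33.3%, beside 24.6% of all peaks), 3 in introns (12.5%, beside 38.0%) and 11 were distal intergenic (45.8%, beside 31.9%). Of the peaks classed as intron, that of Cx3cr1 lay in the gene's own intron, and those of P2ry12 and Csf1r lay in Med12l and Pdgfrb. Peaks of P2ry12, Csf1r, Aif1 and Trem2 that lay wholly inside an intron of the gene were classed as promoter. The median distance of the 24 member peaks to the assigned TSS was 7246 bp, beside 14783 bp for all peaks.

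**Figure D1:**
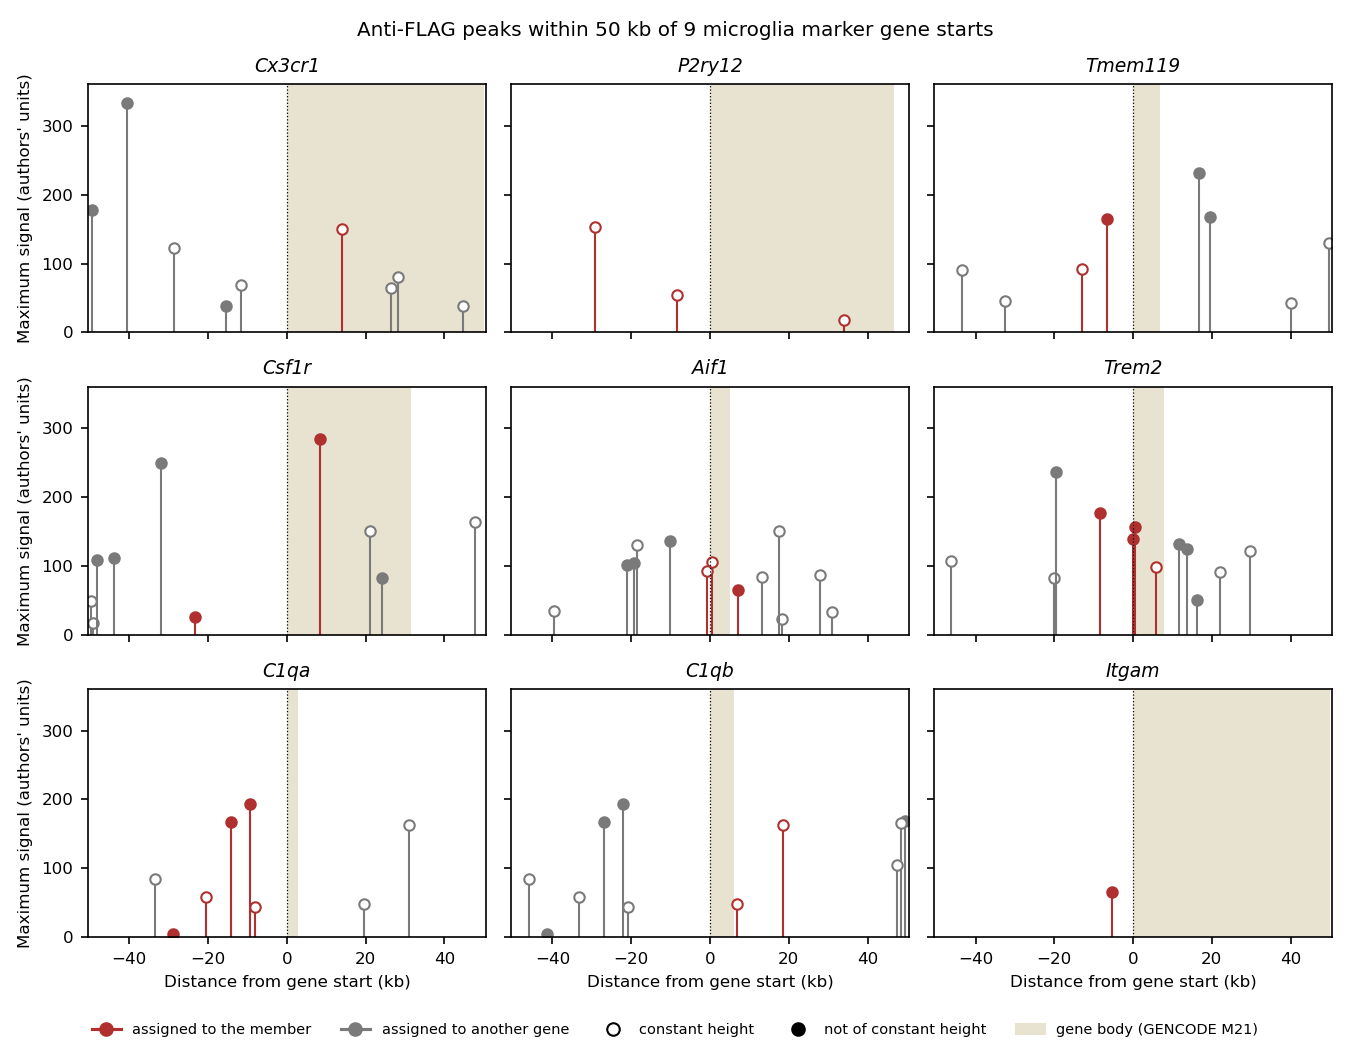
Each panel plots the maximum signal (authors' units) of every peak within 50 kb of the start of 1 microglia marker gene against its distance from that start in kb, with negative values upstream. Red peaks were assigned to the member and grey ones to another gene, open circles mark constant height, and shading marks the GENCODE M21 gene body. Csf1r has a peak of 284 inside the gene, Trem2 has peaks at its start, and Itgam has a single peak of 66.

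Among the receptors, Csf1r had the highest member peak. Csf1r (ENSMUSG00000024621, chromosome 18, 61100598 to 61132149, plus strand) encodes the receptor for the growth factors CSF1 and IL-34. The peak at 61108402 to 61109041 was 640 bp wide and reached 284, the 97.3rd percentile. Its total signal was 33.8% of a rectangle of that height, so its height varied over the peak. The whole peak lies in intron 2 of 21 of the transcript that starts at 61105572, an intron from 61105999 to 61109615. This intron is known for FIRE, a conserved enhancer that macrophages use to express the gene; whether the peak covers that element was not tested. The authors placed the peak 2931 bp downstream of a TSS. The second assigned peak, at 61076961 to 61077383, reached 26 (5.95th percentile) and lies in an intron of the neighbouring gene Pdgfrb, 23233 bp upstream. A further 2 peaks inside the Csf1r gene body, with maxima of 151 and 82, were assigned to the microRNA gene Mir6983. No peak overlapped the start at 61100598, and the nearest was 7804 bp away.

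Trem2 had peaks at its start. Trem2 (ENSMUSG00000023992, chromosome 17, 48346401 to 48354147, plus strand) encodes a lipid-sensing receptor that signals through the adaptor TYROBP. Of its 4 assigned peaks, the one at 48345977 to 48346608 covered the gene start and reached 139 (77.6th percentile), with its maximum 16 bp upstream. It was the single member peak that overlapped a gene start as GENCODE gives it. A second peak, at 48346780 to 48347072, reached 156 (84.4th percentile) in intron 1 of 4 of the transcript ENSMUST00000024791.14, where it overlaps an exon of another Trem2 transcript. The third, at 48337175 to 48338008, reached 177 (88.4th percentile) and lay 8465 bp upstream, outside any annotated gene. None of these 3 was of constant height, and the window sequences at the start and at 8465 bp are printed above. The fourth, at 48351994 to 48352319, was of constant height, reached 98 (47.8th percentile) and lay in the 3′ UTR. Trem2 thus had 3 peaks that overlapped its own gene body, as many as Csf1r, and 55.1% of the 2117 protein-coding genes within 20% of its length had none.

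Cx3cr1, the receptor for the neuronal chemokine CX3CL1, had 1 assigned peak. It lies on chromosome 9 at 120055843 to 120055938, reached 150 (82.4th percentile) and was of constant height over 96 bp, the narrowest member peak. It sits in the intron from 120052344 to 120068204, 12345 bp inside the gene by the authors' distance. GENCODE M21 gives Cx3cr1 (ENSMUSG00000052336, 119901616 to 120069879, minus strand) a length of 168 kb because of a transcript that runs past neighbouring genes, and 26 of the 27 peaks in this span were assigned to other genes. In the RefSeq extent of 19.6 kb it was the 1 peak. The highest peak within 50 kb of the start reached 333 and was assigned to Slc25a38, at -40.6 kb from the start.

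P2ry12, a receptor for ADP that guides microglial processes, had 3 assigned peaks. Their height was constant in each case. The gene (ENSMUSG00000036353, chromosome 3, 59216272 to 59262871, minus strand) lies inside the larger gene Med12l on the opposite strand. The peak at 59228571 to 59229243 reached 18 (3.18th percentile). It counts as within 1 kb because it lies 990 bp upstream of an internal P2ry12 start, but it is in intron 1 of 3 of the transcript ENSMUST00000050360.13, and 33965 bp from the gene start. The peak at 59270965 to 59271527 reached 54 (18.4th percentile), 8095 bp upstream, and that at 59292007 to 59292281 reached 153 (83.5th percentile), 29137 bp upstream within Med12l. The windows at both upstream peaks were mostly soft-masked, by 87.0% and 87.5%. These 3 peaks were also the only ones within 50 kb of the gene start, 30.0 per Mb beside a mean of 31.0 per Mb for chromosome 3.

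Tmem119, a membrane protein used to separate microglia from other macrophages, had no peak in its gene body (ENSMUSG00000054675, chromosome 5, 113793729 to 113800516, minus strand). Of protein-coding genes within 20% of its length, 58.7% of 2104 had none either. Its 2 assigned peaks were intergenic and upstream. The nearer one reached 165 (86.5th percentile) and was not of constant height. The other, at 113813253 to 113813645, reached 92 (43.2nd percentile) at 12737 bp. The highest peak within 50 kb of the start, 232, was assigned to Iscu.

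The complement genes had no peak inside their bodies, as most genes of their length had none. By the length limit used for Tmem119, 66.7% of 976 protein-coding genes similar to C1qa had no such peak. For C1qb the share was 61.8% of 2026. C1qa and C1qb encode 2 chains of C1q, which starts the classical complement pathway, and lie with C1qc, the gene of the remaining chain, in a cluster of 18.7 kb on chromosome 4 (136880129 to 136898803, all on the minus strand). The cluster lies inside a stretch of 27.1 kb without any peak, from 136879564 to 136906659. The mean density of chromosome 4 was 41.8 peaks per Mb. C1qc had no assigned peak. The 5 peaks assigned to C1qa (ENSMUSG00000036887) all lay upstream, 7858 to 28481 bp from its TSS. The highest 2 were not of constant height: 136907654 to 136908446 reached 194 (90.7th percentile) and 136913002 to 136913649 reached 167 (86.9th percentile). Those at 7858 and 20481 bp reached 44 and 58. The peak at 28481 bp reached 5, the lowest maximum of any annotated peak, in a window of which 58.5% was soft-masked. C1qb (ENSMUSG00000036905) had 2 peaks of constant height past its 3′ end, at 136867548 to 136867870 with a maximum of 163 (86.1st percentile) and at 136878945 to 136879563 with a maximum of 48 (15.3rd percentile).

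Itgam, the alpha chain of the complement receptor CR3, stood in the emptiest surroundings. The gene (ENSMUSG00000030786, chromosome 7, 128062640 to 128118491, plus strand) is 55.9 kb long and held no peak, which was so for 13.4% of the 1735 protein-coding genes within 20% of its length. It lies in a stretch of 61.4 kb without peaks. One assigned peak, at 128057203 to 128057475, reached 66 (25.4th percentile) at 5173 bp upstream, in a window that was 67.5% soft-masked. The other, at 128118877 to 128119313, reached 51 (16.8th percentile) and lies 386 bp past the end of the gene. Its TSS, 2441 bp away, is that of a transcript which GENCODE M21 gives to Gm49368. Both peaks had ratios just under the limit for constant height, at 98.7% and 98.5%.

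Aif1, which encodes the calcium-binding protein IBA1 used to stain microglia, had 3 assigned peaks of modest height. The gene (ENSMUSG00000024397, chromosome 17, 35170991 to 35176068, minus strand) lies in the gene-dense class III region of the major histocompatibility complex. The peak at 35175494 to 35175626 reached 106 (54.2nd percentile), 376 bp inside a TSS in intron 1 of 7. That at 35176670 to 35176845 reached 93 (44.0th percentile), 602 bp upstream. Both were narrow, at 133 and 176 bp, and of constant height. The third, at 35168880 to 35169898, was 1019 bp wide and not of constant height, but reached only 65 (24.7th percentile). It lies 1093 bp past the 3′ end of the gene, although the authors' class is promoter at 2 to 3 kb. The highest peak within 50 kb of the Aif1 start, 150, was assigned to Prrc2a.

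**Figure D2:**
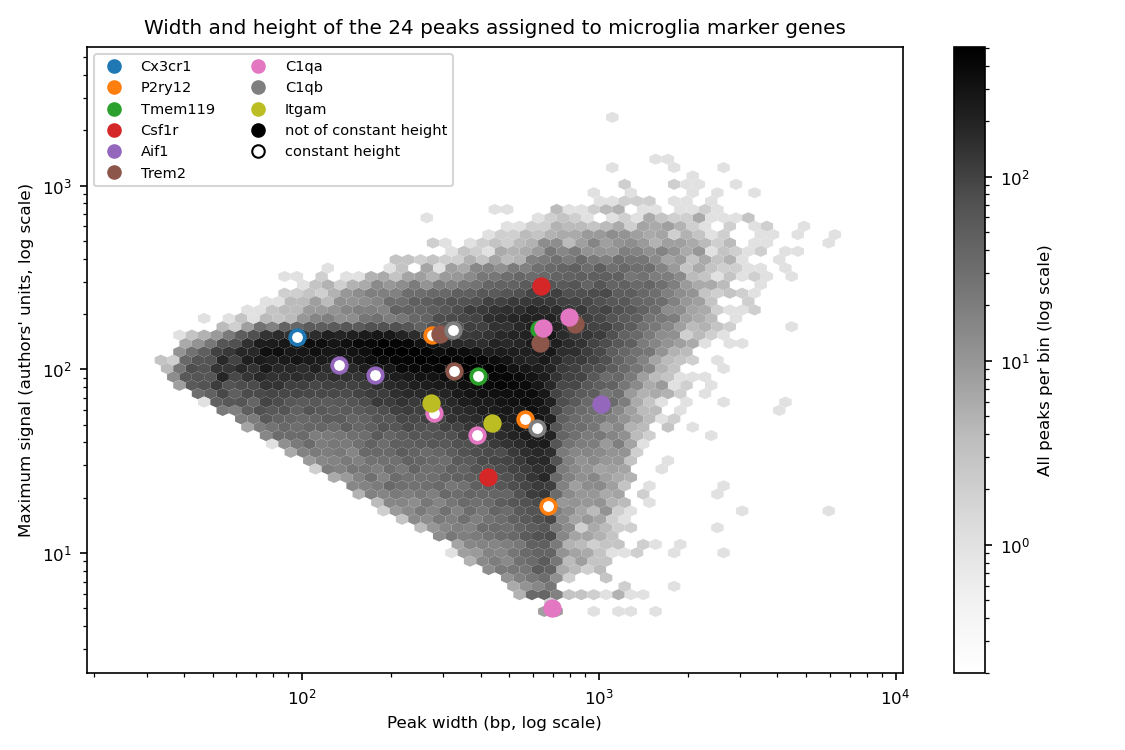
Maximum signal (authors' units, log scale) is plotted against peak width (bp, log scale) for the 24 member peaks, coloured by gene, over a grey density of all 99797 peaks. Filled circles are peaks that were not of constant height. The tallest member peak is that of Csf1r at 284, and the lowest is that of C1qa at 5.

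Counted over whole surroundings rather than by assigned gene, the 100 kb centred on the gene start held from 1 peak (Itgam) to 13 (Aif1). The median over the 9 members was 9 peaks, and over all protein-coding gene starts it was 5, with quartiles of 2 and 9. Aif1 (2.84 times the mean density of its chromosome), Csf1r (2.72), C1qb (2.63) and Trem2 (2.62) had the densest surroundings. C1qa (1.91), Cx3cr1 (1.88) and Tmem119 (1.72) were lower, P2ry12 was close to its chromosome at 0.967, and Itgam was at 0.225. The windows of C1qa and C1qb overlap and share most of their peaks. In the Aif1 window, 10 of the 13 peaks were assigned to other genes, so a dense neighbourhood is not a measure of the member itself.

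**Figure D3:**
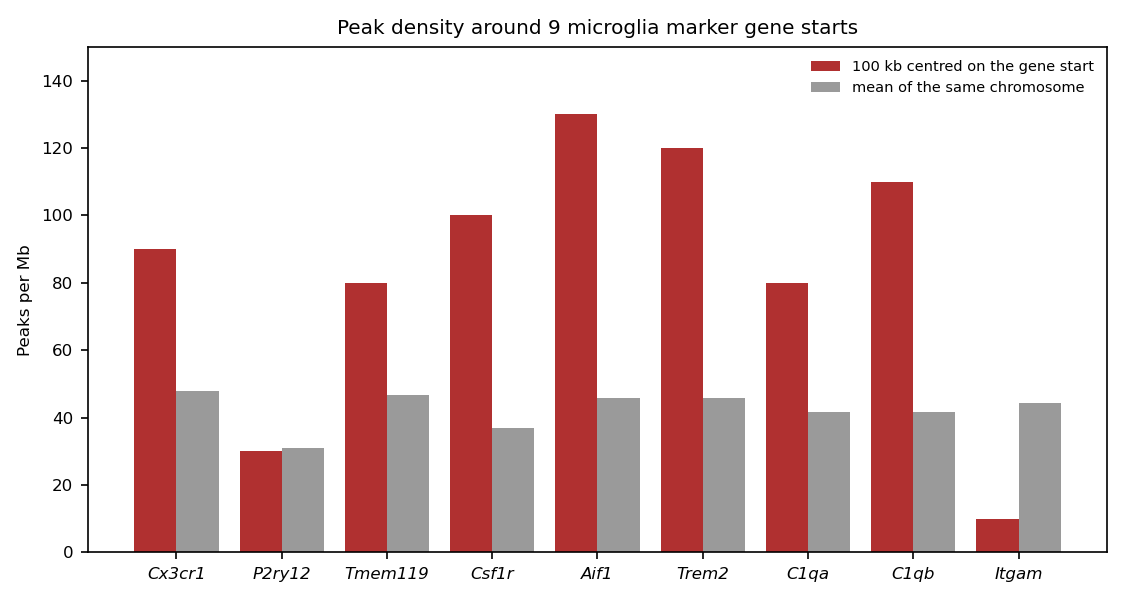
Bars show peaks per Mb in the 100 kb centred on the start of each member (red) beside the mean of the same chromosome (grey). Itgam, at 0.225 times its chromosome, is the lowest, and Aif1, at 2.84 times, the highest.

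The partners and ligands of these proteins were looked at as a list of 9 genes: Cx3cl1, Csf1, Il34, Tyrobp, Itgb2, C1qc, C3, Apoe and Entpd1. Of these, 8 had an assigned peak (72.7% of protein-coding genes), 5 had one within 1 kb of a TSS (42.5%), and in 3 of these it was not of constant height (28.8%). Cx3cl1, the neuronal ligand of Cx3cr1, had 12 assigned peaks. One overlapped its TSS with a maximum of 156, and another, 1318 bp inside, reached 528 (99.8th percentile). Csf1 and Il34 encode the ligands of Csf1r. Csf1 had 13 assigned peaks, with one of 146 at its TSS, and Il34 had 9, with a maximum of 514 at 18093 bp inside and 65 at 620 bp. C3, the complement component that the Itgam receptor recognises after cleavage, had a peak of 298 at 375 bp inside an assigned TSS. By the peak coordinates and distances, this TSS lies downstream of the C3 start from which its peak of 48 was measured. C3 thus counts as within 1 kb by an internal TSS. Apoe, a lipid carrier bound by Trem2, had a constant-height peak of 136 at its TSS. Tyrobp, the adaptor of Trem2, had 1 peak, of 208, at 19682 bp upstream, and Itgb2, the beta chain that pairs with Itgam, had 2, with maxima of 133 and 11. The median over this list of the highest percentile per gene was 93.2, beside 86.1 for the 9 members and 66.5 for all protein-coding genes. In these medians a gene without a peak counts as 0. All 9 members had an assigned peak, but only 72.7% of protein-coding genes did, which lowers the value for all genes. The partner median is the value of Entpd1, which had 10 assigned peaks and 0 within 1 kb of a TSS. With constant-height peaks left out the median was 93.2 for the partners, 25.4 for the members and 9.84 for all protein-coding genes. The partners had a median gene length of 19.4 kb, beside 7.75 kb for the members, and the part of length was not tested. Among the highest 10% of peaks by maximum signal, 6 partners, 2 members and 24.9% of protein-coding genes had one, so that the median was 93.2 for the partners and 0 for the members and for all genes.

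Markers of other hippocampal cells were counted in the same way, in lists of 9 genes each. Among excitatory neuron markers, a list that includes Camk2a, all 9 had an assigned peak, 6 had one within 1 kb of a TSS, and 5 had such a peak that was not of constant height. For the 9 microglia genes the last 2 counts were 3 and 1. Astrocyte markers gave 7, 2 and 0, and oligodendrocyte markers 8, 2 and 2. Endothelial markers gave 8, 2 and 1. Lymphocyte and granulocyte markers, of cells that are rare in brain tissue, gave 7, 3 and 0. Over all protein-coding genes the 3 shares were 72.7%, 42.5% and 28.8%. The median number of assigned peaks was 10 for excitatory neuron, 2 for microglia, 1 for astrocyte, 2 for oligodendrocyte, 4 for endothelial and 1 for lymphocyte and granulocyte markers. The median highest percentile was 96.2, 86.1, 75.9, 78.0, 89.1 and 33.7, in the same order, so that the endothelial list lay above the microglia list. With constant-height peaks left out the medians were 96.2, 25.4, 0, 4.15, 89.1 and 0. The excitatory neuron and endothelial medians were thus unchanged. The microglia median of 25.4 is the value of 1 gene, Itgam, whose peak had a ratio of 98.7%, just under the limit. Csf1r (97.3), C1qa (90.7), Trem2 (88.4) and Tmem119 (86.5) kept their highest peaks. Cx3cr1, P2ry12 and C1qb had no peak left, and Aif1 kept one at the 24.7th percentile. The lists differ in gene length, with medians of 17.0 kb for excitatory neuron, 45.6 kb for endothelial and 7.75 kb for microglia markers, and the part of length in these counts was not tested.

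**Figure D4:**
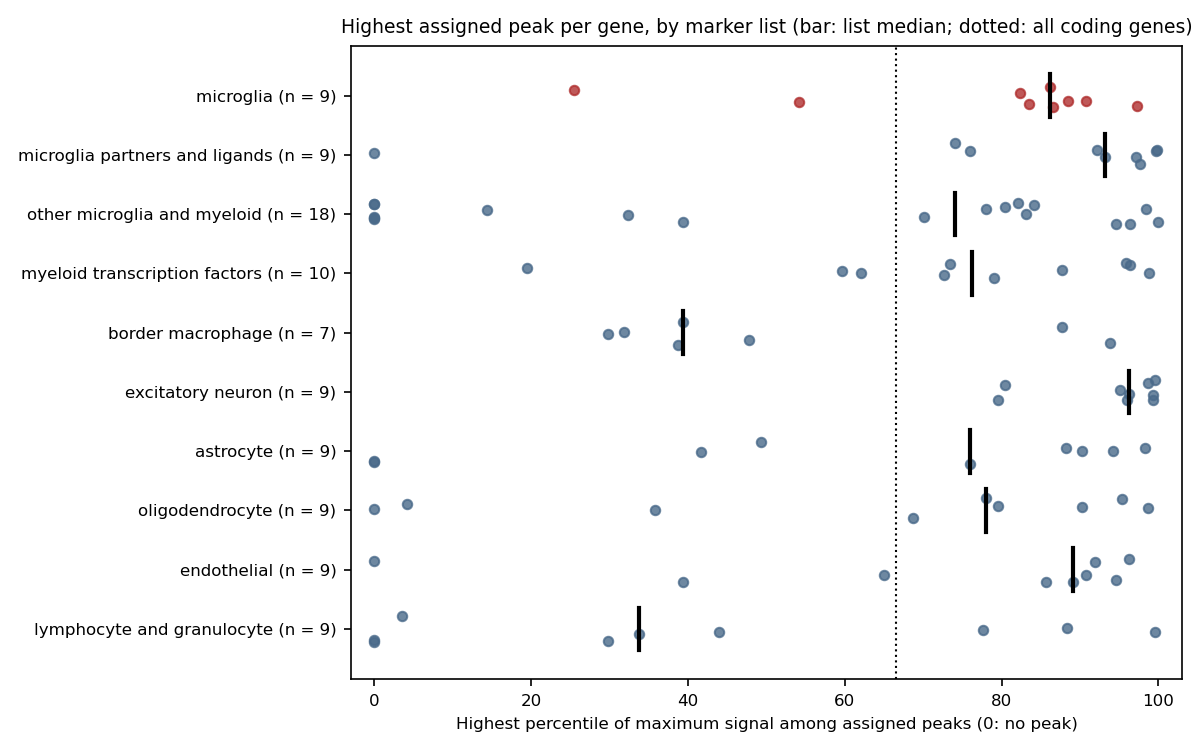
Each point is 1 gene, placed by the percentile of its tallest assigned peak (0 without a peak), in rows by marker list. The bar is the list median and the dotted line the median over all protein-coding genes, 66.5. Microglia markers (red) have a median of 86.1, which is 25.4 with constant-height peaks left out, endothelial markers 89.1, excitatory neuron markers 96.2 and lymphocyte and granulocyte markers 33.7.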

How the data were processed

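CUT&Tag was measured in 1 anti-FLAG and 1 IgG library of hippocampus. Per the labels' protocols, the authors used Bowtie2 on trimmed reads with mm10 as the genome. After duplicates and reads of low quality were taken out, SEACR called the peaks, with IgG as control. Versions, SEACR settings and any scaling of the signal are not given in the sources used here. The deposited signal values are coverage summed over each peak and its maximum. The authors' deposited annotation table assigns the region of maximum signal to a transcript, a gene and a distance in bp. The sources used here give no sequencing depth, so no counting precision can be given.

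Peaks were joined to the annotation by the region of maximum signal, with 100.0% equal total signal. Of annotated peaks, 98.9% had a transcript in GENCODE M21, and 100.0% of these had the same start and end. Python 3.11.15, pandas 2.3.3 and numpy 2.4.6 were used. Functions were tested on simulated data. A gene counts as having a peak by symbol or Ensembl ID. Named are all 9 members, the listed partners with a peak within 1 kb of a TSS or without any, and neighbours with the highest peak within 50 kb or that enclose a member. Tyrobp, Itgb2 and Entpd1, other genes named as the place of a member peak, and the genes named under other observations were chosen after their values were seen. Members and lists were chosen with earlier results of these data known. Window sequences are printed for 5 of the 24 member peaks. Length classes, masked shares and the shares of all genes and lists under the alternatives were added after the files were seen. The alternatives were stricter peak sets, merged peaks, other gene assignments, other distances, other shape thresholds and other rankings.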

Additional observations from a re-analysis of the deposited data

How the results depend on the processing

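The 5 results were recomputed under 37 alternatives. Of these, 22 left a count within 1.5 times its value, or the median percentile between 54.2 and 90.7 (an interval of order statistics over the 9 genes). That interval is wide and also holds the median of all protein-coding genes, 66.5. Some of the 22 could not have moved: merging takes no gene's last peak, and a lower limit on height leaves the highest peak of a gene that passes it. The 22 are thus no measure of robustness. The other 15 alternatives moved a value further than this. They hold fewer peaks or use other borders, and the cause of a change was not tested. In the top 10% by maximum signal, 2 members (Csf1r and C1qa) kept 2 peaks, 0 had one within 1 kb of a TSS, and the median highest percentile was 0. In the top 10% by total signal, 2 members (Trem2 and C1qa) kept 2 peaks, with 0 within 1 kb and a median of 0. Over all protein-coding genes, 24.9% had a peak in the top 10% by maximum signal and 25.4% in that by total signal. The median over all protein-coding genes was 0 in both. Peaks with a maximum above the median numbered 11. With constant-height peaks left out, 12 peaks remained, 1 member had one within 1 kb and the median was 25.4. Counting peaks in the gene body and the 3 kb before it, 5 members had any, whether by 1 bp or by 50% of the peak. Of the 36 peaks then counted, 27 were in the long Cx3cr1 span. Within 3 kb of a TSS, 5 members had a peak. No share over all genes was computed for this distance, so the count cannot be read as a result about the members. Itgam is among the 5 by a TSS that GENCODE M21 gives to Gm49368, and that peak lay 56134 bp from any Itgam TSS. No paired analysis was possible because each antibody has 1 library. Depth is unknown and sets no limit that can be stated.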

Other observations

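Other myeloid genes were counted on the same terms. Of 18 further microglia and myeloid genes, 13 had an assigned peak (72.2%). Of the 18, 5 had one within 1 kb of a TSS and 1 had such a peak that was not of constant height. The shares over all protein-coding genes were 72.7%, 42.5% and 28.8%. Cd33, Cd68, Fcer1g, Gpr34 and P2ry13 had none. Olfml3, chosen here after its values were seen, had the highest peak of that list, with a maximum signal of 638. All 10 myeloid transcription factors had an assigned peak, 5 within 1 kb of a TSS. Spi1, which encodes PU.1 and was also chosen after its values were seen, had 1 assigned peak, of 56, at 5979 bp from a TSS. Of 7 markers of macrophages at the brain's borders, 7 had an assigned peak and 2 had one within 1 kb, with a median highest percentile of 39.4. That median was 74.1 for the 18 further genes, 76.2 for the transcription factors and 66.5 for all protein-coding genes.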
